A study of Homo sapiens with 12 samples.

Results

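The difference between SEM-K2 and RS4:11 cells in their transcript response to obatoclax was measured with the doses pooled. It was computed as the mean of the 2 treated groups minus vehicle in SEM-K2, minus the same quantity in RS4:11, over all 12 of the 12 arrays of the study. A positive value means a response that was more upward in SEM-K2 than in RS4:11, on the log2 scale. Of 19775 genes with a named probe set, 10561 exceeded a log2 level of 4, the floor used here, on at least 2 of 12 arrays and were tested. Of these, 9804 exceeded the floor on at least 2 of the 6 arrays of each line and are called genes expressed in both lines. A further 447 genes did so in SEM-K2 alone (silent in RS4:11), 281 in RS4:11 alone (silent in SEM-K2) and 29 in neither line taken by itself. In a gene silent in 1 line, the values of that line lie at background, so the difference mostly carries the response of the other line, with its sign turned where the silent line is SEM-K2.

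SEM-K2 and RS4:11 are established lines of human acute lymphoblastic leukaemia of the B lineage with a fusion of KMT2A (MLL) and AFF1 (AF4), shared by all groups. The groups were SEM-K2 with vehicle, with obatoclax at its 72 h EC50 and with obatoclax at 3xEC50, and RS4:11 with the same 3 treatments, each for 6 h and with 2 replicates. The EC50 is the concentration that gives an effect at the midpoint of its range, here in a 72 h assay, and 3xEC50 is 3 times that concentration. The sources used here give neither the concentrations nor whether both lines received the same ones, so line and concentration cannot be told apart. The replicates were called biologic, with no word on whether they came from separate cultures, so the p-values rest on the spread among these samples, which may be partly technical. Each line stands for itself alone, and a difference between them is one between 2 lines.

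Obatoclax was designed to fill the groove by which the antiapoptotic proteins BCL2, BCL2L1 (BCL-XL) and MCL1 hold the proapoptotic BH3-only proteins, which act upstream of BAX and BAK1 at the mitochondrion. A further pathway relevant to drug response is the integrated stress response, in which phosphorylation of the initiation factor eIF2 slows translation in general and favours that of the transcription factor ATF4. ATF4 and its partners then act on genes for amino acid import, amino acid synthesis and tRNA charging, and on effectors such as DDIT3 (CHOP), TRIB3 and PPP1R15A (GADD34). NF-kappaB, a family of transcription factors held in the cytoplasm by inhibitors such as NFKBIA, acts on cytokine, survival and costimulatory genes in B cells and also on the genes of its own inhibitors.

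Arrays had 41.7% to 42.8% of their probe sets above the floor. SEM-K2 3xEC50 replicate 2 stood apart in signs of RNA quality. Its 3' control probe set for ACTB exceeded the 5' one by 1.97 (log2), against 0.87 to 1.23 elsewhere, and for GAPDH by 0.61, against 0.08 to 0.30 elsewhere. RS4:11 vehicle replicate 1 had the highest 18S ribosomal RNA signal, at 9.85, and the next array had 6.98. Of 9 B lineage markers with a probe set, 7 exceeded the floor in SEM-K2 (neither DNTT nor MME) and 8 in RS4:11 (all but MME), CD22, CD79A, PAX5 and EBF1 among them in both lines. Markers of other cells were mostly at the floor in both lines, with 1 of 13 myeloid (CSF1R), 3 of 15 T and NK (LCK, NKG7 and ZAP70), 1 of 9 erythroid and megakaryocyte (ITGA2B) and 4 of 14 fibroblast and epithelial markers (COL1A1, KRT8, PDGFRB and VIM) above it.

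The pooled responses of the lines differed for 7 genes. KANK1, BHLHE40, CD1A, ENPP2, MS4A1 and STARD13 rose with obatoclax in SEM-K2 and DLX2 fell there, while all 7 lay below the floor on every RS4:11 array, treated or not. Called genes, those with an adjusted p below 0.05, were thus 7 of 10561, or 0.0663% of the genes tested, with 6 upward (0.0568%) and 1 downward (0.00947%). All 7 were among the 447 genes silent in RS4:11 (1.57% of them). KANK1, CD1A, ENPP2 and STARD13 exceeded the floor on the 4 treated SEM-K2 arrays alone, so they were tested, and counted in that class, through the change itself, and nothing is read from that share. None of the 9804 genes expressed in both lines and none of the 281 silent in SEM-K2 passed the test. Among the 9804, limma gave 454 genes (4.63%) with an unadjusted p below 0.05, close to the 5% that chance gives, and a smallest adjusted p of 0.0843. Over all genes tested, 616 had an unadjusted p below 0.05 (5.83%), 385 upward (3.65%) and 231 downward (2.19%). In bulk RNA such as this, a change in the number of cells that carry a transcript and a change in RNA per cell cannot be told apart.

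KANK1 encodes a scaffold protein that restrains actin polymerisation. Its level in SEM-K2 was 2.54 and 2.54 with vehicle, 6.61 and 6.55 at EC50 and 6.78 and 7.19 at 3xEC50, against 2.22 to 2.59 over the 6 RS4:11 arrays. Treated and vehicle arrays of SEM-K2 were far apart, and both 3xEC50 arrays lay just above the EC50 arrays. The line difference was 4.08 ± 0.19 (SE; adjusted p = 0.00028), with 4.12 in replicate 1 and 4.04 in replicate 2. Since vehicle lay below the floor, the rise in SEM-K2 is given as at least 5.98-fold at EC50 and at least 7.93-fold at 3xEC50. A pair of other KANK1 probe sets stayed below the floor in both lines and gave differences of -0.41 and -0.05.

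STARD13 encodes a GTPase-activating protein for RhoA, another regulator of the actin cytoskeleton. Its level in SEM-K2 was 2.80 and 2.76 with vehicle, 5.66 and 5.88 at EC50 and 6.05 and 7.46 at 3xEC50, against 2.21 to 2.48 in RS4:11. This gave a line difference of 3.50 ± 0.37 (SE; adjusted p = 0.019). Every treated SEM-K2 array exceeded both vehicle arrays, and the replicates at 3xEC50 were the least alike. Against the floor the rise was at least 3.40-fold at EC50 and at least 6.75-fold at 3xEC50. Its second probe set, above the floor on only 3 arrays, gave 1.41.

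ENPP2 encodes autotaxin, the secreted enzyme that makes lysophosphatidic acid. Its level in SEM-K2 was 2.89 and 3.18 with vehicle, 6.91 and 5.95 at EC50 and 7.04 and 6.66 at 3xEC50, against 2.40 to 2.87 in RS4:11. In all, the lines differed by 3.53 ± 0.33 (SE; adjusted p = 0.015), and its second probe set, above the floor on 4 arrays, gave 2.73. Against the floor the rise was at least 5.39-fold at EC50 and at least 7.22-fold at 3xEC50, and the levels at the 2 doses overlapped.

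BHLHE40 encodes a basic helix-loop-helix repressor that is also part of the circadian clock. Its SEM-K2 replicates lay far apart, at 5.15 and 2.67 with vehicle, 7.81 and 6.19 at EC50 and 8.28 and 6.58 at 3xEC50, against 2.48 to 2.72 in RS4:11. Within each replicate number the treated arrays were well above vehicle, so the line difference was 2.89 in replicate 1 and 3.65 in replicate 2, and 3.27 ± 0.25 (SE; adjusted p = 0.0061) in all. Vehicle replicate 2 of SEM-K2 lay below the floor, so part of the rise in replicate 2 is measured below it. The call of BHLHE40 depended on a block within each line. Without the replicate block it was not called, with the same difference and an adjusted p of 1.00, nor was it with a block shared by both lines, with a random block or without the filter on low values, and over its alternatives and omitted arrays the adjusted p ran from 0.0016 to 1.00. Its second probe set, above the floor on only 2 arrays, gave 1.14.

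2 called genes encode surface proteins of lymphoid and antigen-presenting cells. CD1A, which presents lipid antigens, had levels in SEM-K2 of 2.61 and 3.19 with vehicle, 5.40 and 5.12 at EC50 and 5.80 and 6.23 at 3xEC50, against 2.52 to 2.62 in RS4:11, a line difference of 2.70 ± 0.24 (SE; adjusted p = 0.014). Against the floor the rise of CD1A was at least 2.39-fold at EC50 and at least 4.04-fold at 3xEC50. MS4A1, which encodes the B cell antigen CD20, was already expressed in SEM-K2, at 6.46 and 5.79 with vehicle, 8.01 and 7.92 at EC50 and 8.46 and 8.27 at 3xEC50, against 2.69 to 3.01 in RS4:11. In both genes all treated SEM-K2 arrays lay above both vehicle arrays. The line difference of MS4A1 was 2.03 ± 0.20 (SE; adjusted p = 0.015), and its 4 probe sets ranged from 0.89 to 2.91. The ends of that range came from probe sets above the floor on 1 array (0.89) and on 4 (2.91).

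DLX2, a homeobox transcription factor gene, was the only called gene that fell. Its level in SEM-K2 was 4.99 and 4.98 with vehicle, 4.18 and 3.93 at EC50 and 2.98 and 2.66 at 3xEC50, against 2.55 to 2.58 in RS4:11. Every treated array lay below vehicle, and at 3xEC50 DLX2 was below the floor in SEM-K2 too. DLX2 had a line difference of -1.56 ± 0.16 (SE; adjusted p = 0.015), part of which is measured below the floor. Down to the floor, the change in SEM-K2 was -0.93 at EC50 and -0.99 at 3xEC50, and with values raised to the floor DLX2 was not called. Its other probe set stayed below the floor and gave -0.06.

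KANK1 was called in each of the 12 fits that left out 1 array. Leaving out any 1 of the 6 RS4:11 arrays ended the calls of CD1A, ENPP2, MS4A1, DLX2 and STARD13, and each of the 4 vehicle and 3xEC50 arrays of that line did so for BHLHE40, with adjusted p no higher than 0.14. The calls of MS4A1, DLX2 and STARD13 also ended without SEM-K2 vehicle replicate 2 or EC50 replicate 2, and those of DLX2 and STARD13 without SEM-K2 EC50 replicate 1. Among the other alternatives, the call of MS4A1 ended with the shared block, that of DLX2 with trend and robust eBayes, that of STARD13 with values raised to the floor, and all but that of KANK1 without the filter. With probe sets averaged, KANK1 and DLX2 did not pass the filter and were not tested.

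**Figure D1:**
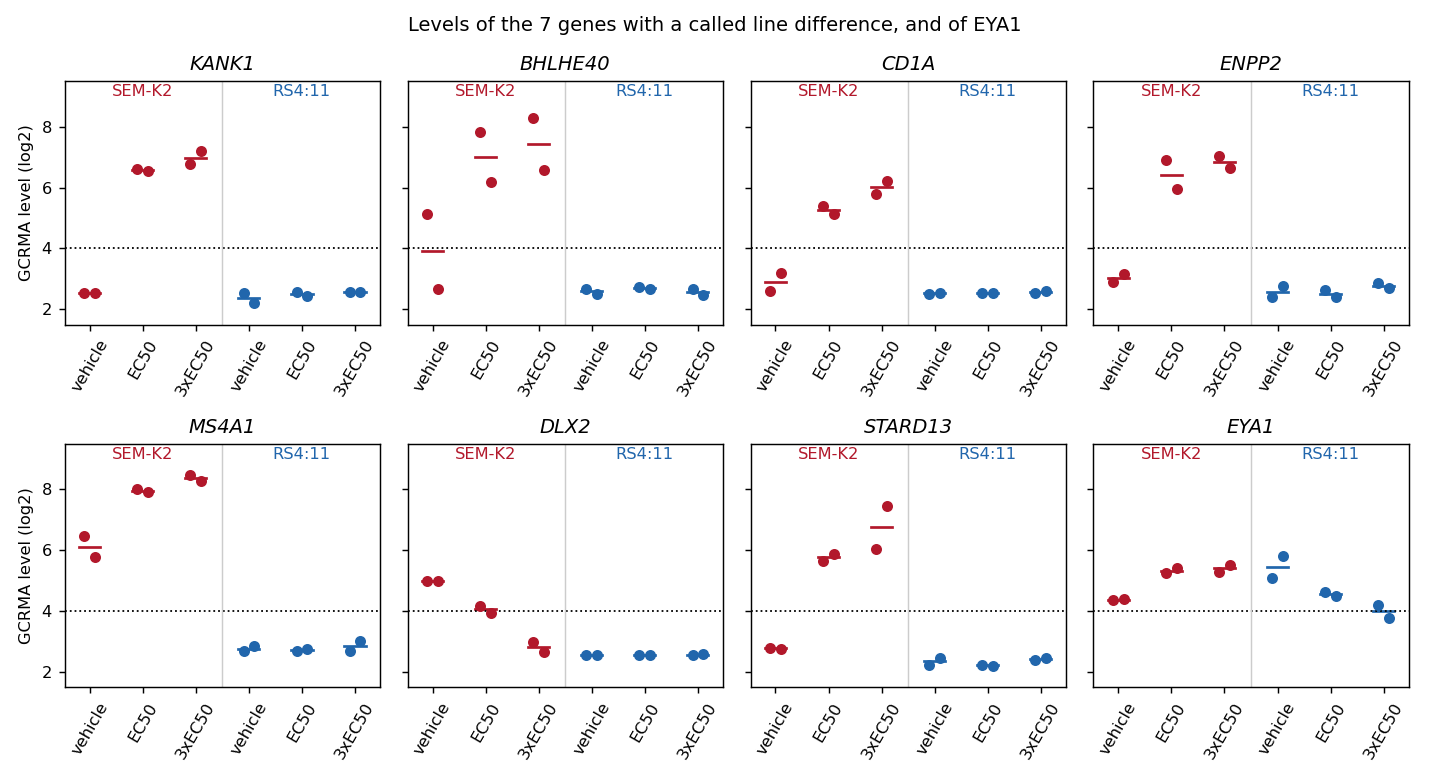
GCRMA level (log2) on each array for the 7 genes with a called line difference and for EYA1, with SEM-K2 in red and RS4:11 in blue; points are replicates, short lines the mean of 2, and the dotted line the floor of 4. RS4:11 lies below the floor on every array for the 7 genes, while EYA1 is higher with drug in SEM-K2 and lower with drug in RS4:11.

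Genes silent in RS4:11 that were lower with drug in SEM-K2, and that came next by p, missed the threshold for the difference although each fell in SEM-K2 by its own test. SEMA3A, a secreted axon guidance ligand, had levels in SEM-K2 of 8.59 and 8.78 with vehicle, 6.57 and 5.73 at EC50 and 6.15 and 5.14 at 3xEC50, against 2.91 to 3.44 in RS4:11. Its line difference was the most negative of all genes tested, -2.39 (95% interval -3.17 to -1.62; adjusted p = 0.084). Its other probe sets gave -2.51 (above the floor on 5 arrays) and -1.93 (on 2). MFAP3L gave -2.19 (-2.89 to -1.49; adjusted p = 0.084), DTNB, which encodes a dystrobrevin, -1.23 (-1.60 to -0.86; adjusted p = 0.079) and FERMT1, which encodes an activator of integrins, -1.33 (-1.80 to -0.86; adjusted p = 0.10). For SEMA3A, MFAP3L and DTNB no treated SEM-K2 array reached the vehicle arrays, whereas for FERMT1 the replicates differed so much that treated and vehicle levels overlapped.

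COL5A1, a chain of fibrillar type V collagen, showed the opposite layout, silent in SEM-K2 and higher with drug in RS4:11. In SEM-K2 its level was 3.44 and 3.36 with vehicle, 3.70 and 3.07 at EC50 and 3.65 and 3.33 at 3xEC50. In RS4:11 it was 5.89 and 5.58 with vehicle, 6.88 and 6.93 at EC50 and 7.35 and 7.01 at 3xEC50. All treated RS4:11 arrays exceeded vehicle and the gene rose in that line by 1.31 (adjusted p = 0.048; 0.161% of all genes tested rose there), while the line difference of -1.27 (95% interval -1.75 to -0.80) had an adjusted p of 0.12. Every rise or fall in RS4:11 given here needs the replicate block, since without it limma called no gene in that line (626 had an unadjusted p below 0.05), and 0 to 13 genes were called there when 1 array was left out. The 2 other probe sets of COL5A1 gave larger differences, -3.57 (above the floor on 4 arrays) and -2.24 (on 6).

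Among genes expressed in both lines, EYA1, a transcriptional cofactor with phosphatase activity, had the largest positive line difference. Its level in SEM-K2 was 4.37 and 4.39 with vehicle, 5.26 and 5.41 at EC50 and 5.29 and 5.52 at 3xEC50. In RS4:11 it was 5.10 and 5.81 with vehicle, 4.61 and 4.49 at EC50 and 4.21 and 3.77 at 3xEC50. Treated arrays were thus all above vehicle in SEM-K2 and all below it in RS4:11. The difference was 2.17 (95% interval 1.49 to 2.85; adjusted p = 0.084), made of 0.99 in SEM-K2 (adjusted p = 0.051) and -1.18 in RS4:11 (adjusted p = 0.076), so neither response nor the difference passed the test. Without the replicate block its adjusted p was 0.0499, over its alternatives and omitted arrays 0.020 to 0.36, and without RS4:11 vehicle replicate 1 it was 0.027.

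Opposite layouts without overlap were fewer than layouts in the same direction. Treated arrays lay above vehicle in SEM-K2 and below it in RS4:11 for 20 of 10561 genes (0.189%), and the other way for 8 (0.0758%). The share that chance gives was not computed, so nothing is read from these counts for EYA1. Treated arrays of both lines lay above vehicle without overlap in 381 genes (3.61%) and below it in 180 (1.7%). No gene was called in both lines in opposite directions.

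The next genes expressed in both lines, by p, all missed the threshold, with adjusted p from 0.10 to 0.14. Of the 12 with the smallest p on the positive side, 10 were called up in SEM-K2 (all but EYA1 and TRIB3), where 2.08% of all genes tested were. The genes were chosen by a difference that contains the SEM-K2 response, so nothing is read from that count. GSDME, which encodes the pore-forming gasdermin E cleaved by caspase-3, had levels in SEM-K2 of 8.74 and 8.85 with vehicle, 10.49 and 10.76 at EC50 and 10.83 and 11.19 at 3xEC50. In RS4:11 its levels were 9.73 and 9.60, 10.52 and 10.59, and 10.73 and 10.67 in the same order of treatments. GSDME rose in both lines, by 2.02 in SEM-K2 (adjusted p = 0.00029) and 0.97 in RS4:11 (adjusted p = 0.048), with a difference of 1.06 (95% interval 0.69 to 1.42). Vehicle was lower in SEM-K2, and at EC50 the levels of the lines overlapped. At 3xEC50 both SEM-K2 arrays lay above both RS4:11 arrays.

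The others of these 12 had values as follows. The costimulatory receptor gene CD40 had a difference of 1.36 (95% interval 0.85 to 1.87), from 1.69 in SEM-K2 (adjusted p = 0.0022) and 0.32 in RS4:11 (adjusted p = 0.45). Its other probe sets gave 0.46 (above the floor on all 12 arrays), 2.14 (on 5) and 0.60 (on 1). The lymphocyte activation marker CD83 followed with 1.20 (0.73 to 1.66), PAG1, a raft adaptor that recruits the kinase CSK, with 1.36 (0.88 to 1.84), and S1PR2, a receptor for sphingosine 1-phosphate, with 1.24 (0.79 to 1.68). RGS1, which shortens G protein signals, had 1.17 (0.70 to 1.64), and ABR, which acts on the GTPase RAC, had 1.48 (0.94 to 2.03). Other probe sets above the floor on all 12 arrays gave 0.90 for ABR and 1.71 and 1.25 for PAG1. An RGS1 probe set above it on 10 arrays gave 2.10. PPFIBP2, a liprin gene, gave 1.46 (0.96 to 1.97), ABHD17C, a depalmitoylase gene, 1.59 (0.97 to 2.20) and C1orf115 1.39 (0.84 to 1.93). For all of these the treated SEM-K2 arrays lay above both vehicle arrays, and in PPFIBP2 and C1orf115 the SEM-K2 vehicle arrays were below the floor.

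On the negative side the receptor of interleukin 7, a growth signal of B cell precursors, stood out by its level. IL7R was at 11.63 and 11.64 with vehicle, 10.69 and 10.36 at EC50 and 10.45 and 10.19 at 3xEC50 in SEM-K2, and at 12.38 and 12.35, 12.36 and 12.21, and 12.05 and 12.11 in RS4:11. It fell in SEM-K2 by 1.21 (adjusted p = 0.0027) and its response in RS4:11 was -0.18 (adjusted p = 0.57). The difference was -1.02 (95% interval -1.41 to -0.64; adjusted p = 0.12), the same in both probe sets to 2 decimals.

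KLHL14, a gene of the BTB-kelch family, fell in both lines, by 2.45 in SEM-K2 (adjusted p = 0.00039) and 1.05 in RS4:11 (adjusted p = 0.048). Its levels were 7.53 and 7.49 with vehicle, 5.81 and 5.34 at EC50 and 4.81 and 4.30 at 3xEC50 in SEM-K2, and 6.74 and 6.23, 5.91 and 4.96, and 5.81 and 5.06 in RS4:11. The difference of -1.40 (95% interval -1.87 to -0.93) had an adjusted p of 0.10. The other negative genes were TLR10 (-1.27), a Toll-like receptor of B cells, APBA1 (-1.26), SLA (-1.18), a Src-like adaptor that dampens antigen receptor signals, PER3 (-1.04), a clock gene, ADAMTS17 (-0.98), LGR6 (-0.96), PRICKLE2 (-0.95), L3MBTL3 (-0.93), LMNTD2 (-0.88) and LOC101929621 (-1.62). Second probe sets above the floor on all 12 arrays gave -0.82 for TLR10 and -0.66 for SLA. For APBA1 a second probe set, above it on 10 arrays, gave -0.28. Other ADAMTS17 probe sets gave -0.16 (above it on 1 array) and -1.97 (on 2). LOC101929621 stood at -0.80 in SEM-K2 and 0.82 in RS4:11, neither of them called. The others were called down in SEM-K2, as were 0.729% of all genes tested, a count that the choice by the difference largely fixes.

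**Figure D2:**
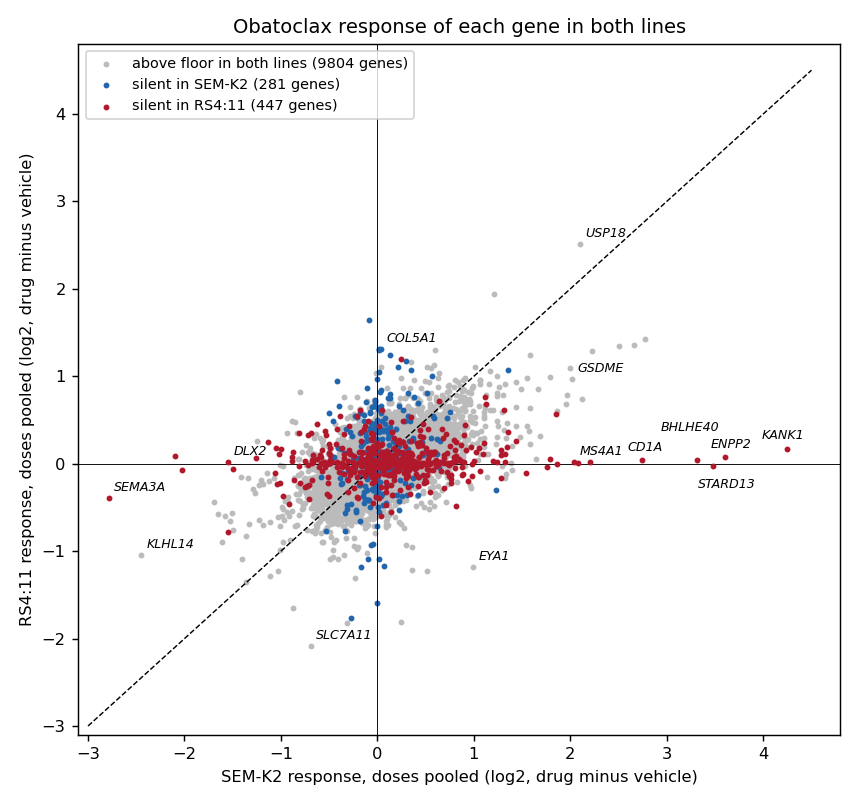
Pooled response (log2, drug minus vehicle) of each gene in SEM-K2, horizontal, and RS4:11, vertical; each point is a gene, grey above the floor in both lines, red silent in RS4:11, blue silent in SEM-K2, and the dashed line marks equal responses. The 7 called genes lie along the horizontal axis, and KLHL14, GSDME and USP18 lie away from both axes.

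For genes expressed in both lines the median size was 0.13 for the line difference, 0.15 for the SEM-K2 response and 0.14 for the RS4:11 response, on the log2 scale. SEM-K2 had 297 called genes (2.81%), 220 up (2.08%) and 77 down (0.729%), and RS4:11 had 26 (0.246%), 17 up (0.161%) and 9 down (0.0852%), a gap in calls that is not itself a test of a difference. Of the 187 genes expressed in both lines and called up in SEM-K2, 171 were above 0 in RS4:11, with medians of 0.89 in SEM-K2 and 0.38 in RS4:11. Of the 54 called down in SEM-K2, 46 were below 0 in RS4:11, with medians of -0.80 and -0.27 in that order of lines. These medians are a description, since the genes were picked by their SEM-K2 values. Across the 9804 genes the pooled responses of the lines correlated at r = 0.595, with no array in common.

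Genes called in both lines numbered 10, of which 9 rose and KLHL14 fell. There were 0 such genes without the replicate block or without the filter on low values, and 0 to 5 when 1 array was left out. FLCN, the gene of folliculin, which acts on RAG GTPases at the lysosome, rose by 1.24 in SEM-K2 and 1.01 in RS4:11, with a difference of 0.23 (95% interval -0.18 to 0.65). Its partner gene FNIP2 rose by 0.88 in SEM-K2 and 0.85 in RS4:11, with a difference of 0.03 (-0.35 to 0.41). USP18, the interferon-induced protease gene, rose by 2.10 in SEM-K2 and 2.52 in RS4:11, with a difference of -0.42 (-1.46 to 0.62). The interval of FNIP2 holds differences of up to 0.41, and that of USP18 is wider. GPR18, a receptor gene, rose by 2.66 in SEM-K2 and 1.36 in RS4:11, with a difference of 1.30 (0.72 to 1.89; adjusted p = 0.17).

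The difference itself agreed little between replicates across genes expressed in both lines, as the plot of the difference by replicate shows. Its values in replicate 1 and replicate 2 correlated at r = 0.0965 over 9804 genes, against 0.411 for the SEM-K2 response and 0.444 for the RS4:11 response. The median SE of the difference was 0.20, above its median size.

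**Figure D3:**
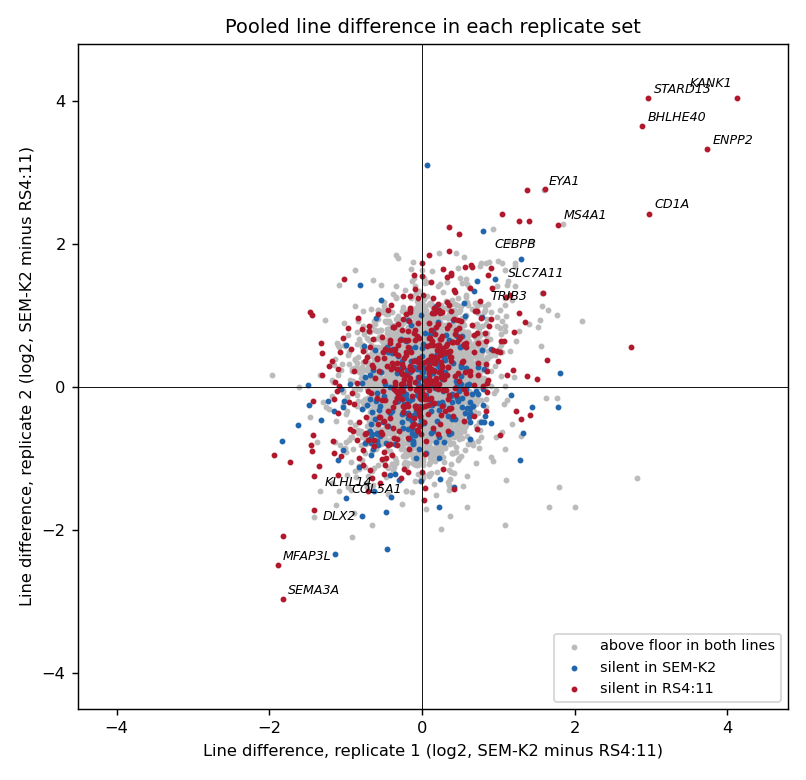
Pooled line difference (log2, SEM-K2 minus RS4:11) from the arrays numbered 1, horizontal, and 2, vertical; each point is a gene, coloured as in the plot of both responses. Genes expressed in both lines form a round cloud (r = 0.0965), while the called genes lie far out on the diagonal, KANK1 at 4.12 and 4.04.

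Effectors of the integrated stress response had mostly positive line differences. Of 17 tested members, 16 had a line difference above 0 and 10 of 17 had an unadjusted p below 0.05, all upward, where 3.65% of all genes did, although none was called after adjustment over all genes. The median difference was 0.61, against 0.05 over all genes tested, of which 59.3% lay above 0. It came from both lines, with a median response of 0.30 in SEM-K2 and -0.39 in RS4:11. The median was 0.57 at EC50 and 0.74 at 3xEC50, which share the vehicle arrays. Across all 24 alternatives and omitted arrays it ranged from 0.38 to 0.76. The gene lists here and below were chosen with earlier results of these data known. No set test was run, so their counts and medians are descriptions.

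DDIT3, which encodes the proapoptotic transcription factor CHOP, rose in SEM-K2 by 0.96 (adjusted p = 0.022). Its levels there were 7.46 and 7.32 with vehicle, 8.33 and 7.97 at EC50 and 8.42 and 8.67 at 3xEC50, and in RS4:11 8.07 and 7.98, 7.85 and 7.63, and 8.14 and 7.52. All treated arrays exceeded vehicle in SEM-K2, while in RS4:11 the groups overlapped. The line difference was 1.20 (95% interval 0.67 to 1.72; adjusted p = 0.17).

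TRIB3, a pseudokinase that restrains AKT and is induced by ATF4 and CHOP, had treated arrays above vehicle in SEM-K2 and below vehicle in RS4:11. Its levels were 6.78 and 6.36 with vehicle, 7.03 and 6.95 at EC50 and 7.13 and 7.11 at 3xEC50 in SEM-K2, and 6.78 and 6.79, 6.28 and 6.36, and 6.22 and 6.28 in RS4:11. The shifts were small, 0.49 in SEM-K2 (adjusted p = 0.082) and -0.50 in RS4:11 (adjusted p = 0.15). The line difference of 0.98 (95% interval 0.60 to 1.37) had an adjusted p of 0.13.

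CEBPB, a bZIP partner of ATF4, had the largest difference of the list, 1.31 (95% interval 0.77 to 1.85; adjusted p = 0.14), and was called without SEM-K2 vehicle replicate 1 (1.66, adjusted p = 0.042). Its levels in RS4:11 were 9.52 and 9.33 with vehicle, 8.66 and 8.33 at EC50 and 8.65 and 8.26 at 3xEC50, lower on every treated array, while the SEM-K2 arrays overlapped between 8.44 and 9.24. VEGFA, the vascular growth factor gene, gave 1.23 (0.62 to 1.83), SESN2, a leucine sensor gene, 1.07 (0.33 to 1.81) and ATF3, a bZIP repressor gene, 1.07 (0.25 to 1.89). PPP1R15A, which directs dephosphorylation of eIF2, rose in SEM-K2 by 1.24 (adjusted p = 0.020) with a difference of 0.93 (0.28 to 1.59). ATF4 itself, which is controlled mainly in translation, gave 0.28 (-0.10 to 0.66).

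**Figure D4:**
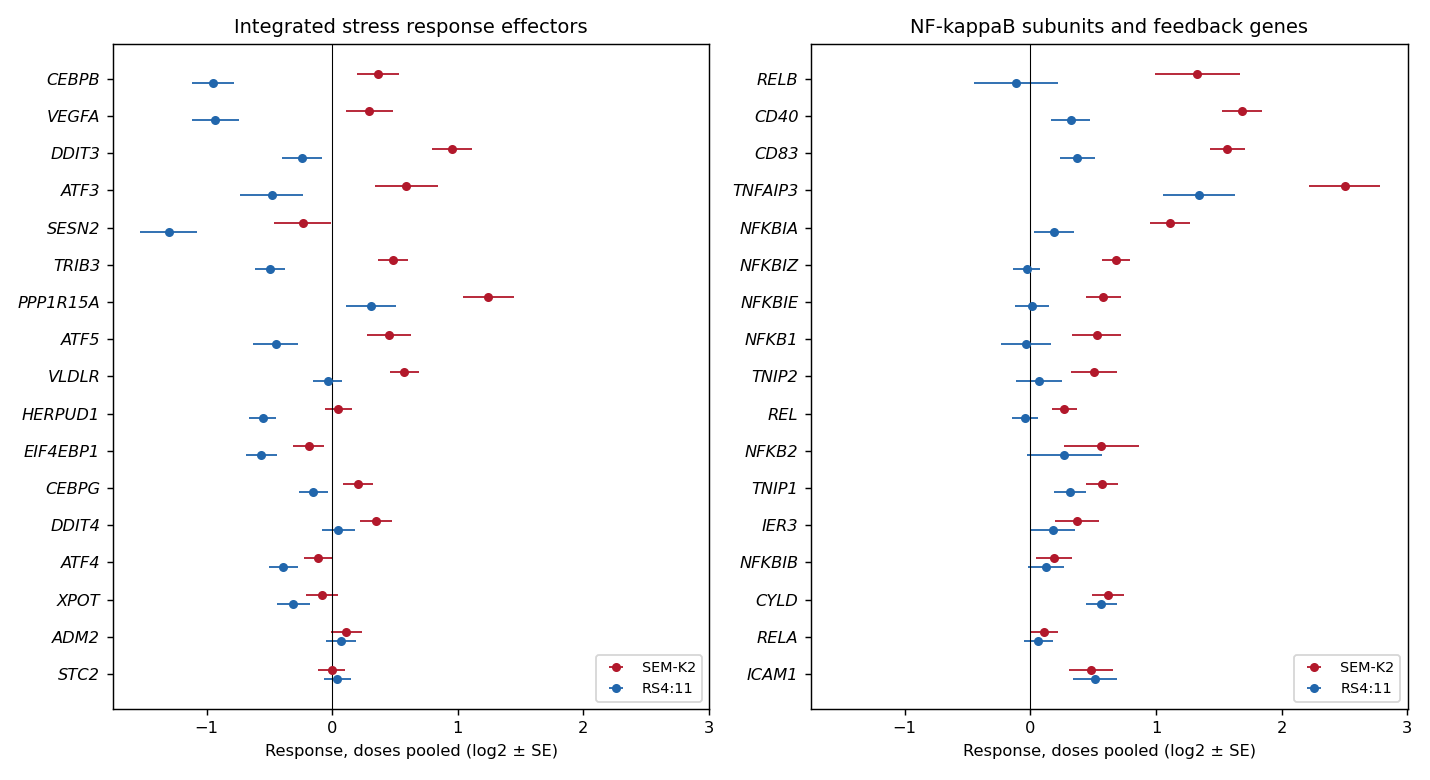
Pooled response (log2, drug minus vehicle, with SE bars) in SEM-K2, red, and RS4:11, blue, of the 17 tested integrated stress response effectors and the 17 tested NF-kappaB genes, ordered by the line difference. In the stress list SEM-K2 lies to the right of RS4:11 for 16 of 17 genes, with medians of 0.30 in SEM-K2 and -0.39 in RS4:11; in the NF-kappaB list the median is 0.57 in SEM-K2 and 0.18 in RS4:11.

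The metabolic genes downstream of ATF4 differed in another way, with lower levels under drug in RS4:11 and smaller shifts in SEM-K2. Of 17 aminoacyl tRNA synthetase genes tested, all 17 were below 0 in RS4:11, with a median of -0.18 in SEM-K2 and -0.46 in RS4:11. Over all genes tested, 4734 of 10561 were below 0 in RS4:11. A fall of every member there was not particular to this list, since all 31 ribosome biogenesis and all 15 heat shock genes were below 0 too. The median line difference of the synthetase genes was 0.28, with 15 of 17 above 0 and 7 at an unadjusted p below 0.05. The 14 genes of serine, one-carbon, proline and asparagine synthesis had a median difference of 0.31, with 12 above 0 and 5 at an unadjusted p below 0.05. The 10 amino acid transporters had 0.25, with 8 above 0 and 3 at an unadjusted p below 0.05. Over all genes tested the median line difference was 0.05, with 59.3% above 0 and 3.65% upward at that level.

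The called members of these lists were in RS4:11, where 0.0852% of all genes tested fell. SLC7A11, the cystine importer of system xc-, fell there by 2.09 (adjusted p = 0.042). Its levels in SEM-K2 were 6.07 and 5.55 with vehicle, 5.31 and 4.62 at EC50 and 5.29 and 5.25 at 3xEC50, and in RS4:11 7.63 and 6.88, 5.91 and 4.35, and 5.71 and 4.70. Treated arrays were below vehicle in both lines, by less in SEM-K2 (-0.69, adjusted p = 0.11). SLC7A11 had a line difference of 1.39 (95% interval 0.77 to 2.01; adjusted p = 0.17). A second probe set gave 1.98 but was above the floor on only 3 arrays, so part of that value is measured below it.

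WARS1, the tryptophanyl tRNA synthetase gene, fell in RS4:11 by 1.02 (adjusted p = 0.048), and its response in SEM-K2 was -0.10. Its levels were 8.84 and 9.19 with vehicle, 8.67 and 9.19 at EC50 and 8.54 and 9.24 at 3xEC50 in SEM-K2, and 9.68 and 9.55, 8.52 and 8.80, and 8.39 and 8.68 in RS4:11. Every treated RS4:11 array was below both vehicle arrays, and SEM-K2 arrays differed more by replicate number than by treatment. WARS1 thus had a line difference of 0.91 (95% interval 0.48 to 1.35; adjusted p = 0.20). PSAT1, an enzyme of serine synthesis, fell in RS4:11 by 1.04 (adjusted p = 0.042), with -0.35 in SEM-K2 (adjusted p = 0.14) and a difference of 0.69 (0.36 to 1.03). PYCR3, an enzyme of proline synthesis, fell in RS4:11 by 0.98 with a difference of 0.76 (0.32 to 1.21). These 4 falls were lost without the replicate block (adjusted p = 0.28 for SLC7A11, 0.29 for WARS1, 0.25 for PSAT1 and 0.11 for PYCR3) and from the RS4:11 arrays alone (0.14 for each). Of the 12 fits that left out 1 array, 4 called SLC7A11, 2 called PSAT1 and 0 called WARS1 or PYCR3. ASNS, the asparagine synthetase gene, gave 0.03 (-0.41 to 0.48).

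ATF4 pairs with C/EBP proteins on composite elements whose core is written TGATGNAA. The core was searched on both strands of RefSeq promoters of GRCh38.p14, windows of 300 bases from 250 before to 50 after the start of a gene. It was present in 1003 of 27305 promoters (3.67%), in 146 of 8729 matched genes among those tested (1.67%) and in 12 of 48 matched members of these 4 lists (25.0%). The lists were drawn up from knowledge of ATF4 targets, so this share is a description of the lists and says nothing on binding in these cells. The 3 promoters below are those of list members with the smallest p for the line difference among those holding the core, and the 250 bases before the start are printed with the core in capitals, read as TTGCATCA because it lies on the other strand.
HERPUD1 (chr16:56931892-56932141, plus strand): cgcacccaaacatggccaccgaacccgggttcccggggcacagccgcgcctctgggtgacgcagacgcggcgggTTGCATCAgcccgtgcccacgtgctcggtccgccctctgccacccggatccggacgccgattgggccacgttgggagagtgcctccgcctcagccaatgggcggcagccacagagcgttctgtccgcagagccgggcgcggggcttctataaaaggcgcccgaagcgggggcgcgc
GOT1 (chr10:99430625-99430874, minus strand): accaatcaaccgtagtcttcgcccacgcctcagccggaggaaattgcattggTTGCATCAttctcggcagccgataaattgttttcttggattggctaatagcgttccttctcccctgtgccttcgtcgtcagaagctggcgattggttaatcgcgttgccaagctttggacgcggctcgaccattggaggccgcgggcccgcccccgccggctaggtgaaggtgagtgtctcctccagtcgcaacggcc
AARS1 (chr16:70289507-70289756, minus strand): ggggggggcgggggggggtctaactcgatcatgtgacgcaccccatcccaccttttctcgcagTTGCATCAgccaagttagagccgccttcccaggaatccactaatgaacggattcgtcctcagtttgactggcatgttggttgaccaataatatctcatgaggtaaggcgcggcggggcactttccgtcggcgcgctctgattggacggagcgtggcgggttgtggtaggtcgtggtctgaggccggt
The core begins at position -176 of HERPUD1, -198 of GOT1 and -187 of AARS1, counted from the start of the gene.

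All 3 of these genes were lower on every treated RS4:11 array than on both vehicle arrays and overlapped in SEM-K2, a layout that 677 of 10561 genes had (6.41%), and none was called. HERPUD1, which acts in the degradation of endoplasmic reticulum proteins, was at 10.17 and 10.23 with vehicle, 10.21 and 10.25 at EC50 and 10.22 and 10.32 at 3xEC50 in SEM-K2, and at 10.68 and 10.46, 10.21 and 9.87, and 10.25 and 9.75 in RS4:11. Its line difference was 0.60 (95% interval 0.25 to 0.95). GOT1, the cytosolic aspartate aminotransferase gene, gave 0.79 (0.28 to 1.30), and AARS1, the alanyl tRNA synthetase gene, 0.66 (0.21 to 1.11).

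Of 17 tested NF-kappaB subunits and feedback genes, 6 rose in SEM-K2 (NFKBIA, NFKBIZ, TNFAIP3, CD83, CD40 and CYLD), against 2.08% of all genes tested. None passed the test in RS4:11, where 0.161% of all genes rose, so that count shows no contrast between the lines. Line differences were above 0 for 16, with a median of 0.44 and 7 at an unadjusted p below 0.05, all upward. Over all genes tested 59.3% were above 0 and 3.65% upward at that level, with a median of 0.05. The median of the list ranged from 0.31 without SEM-K2 vehicle replicate 2 to 0.64 without SEM-K2 vehicle replicate 1, and no member's difference was called.

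NFKBIA, a cytoplasmic inhibitor of NF-kappaB, rose in SEM-K2 by 1.11 (adjusted p = 0.013). Its levels were 8.95 and 8.24 with vehicle, 9.56 and 9.23 at EC50 and 9.99 and 10.05 at 3xEC50 in SEM-K2, and 10.21 and 10.03, 10.50 and 10.31, and 10.41 and 10.02 in RS4:11. The treated SEM-K2 arrays approached the RS4:11 levels, where treated and vehicle arrays overlapped. A line difference of 0.92 resulted (95% interval 0.40 to 1.44; adjusted p = 0.29). TNFAIP3, which encodes the ubiquitin-editing inhibitor A20, rose in SEM-K2 by 2.50 (adjusted p = 0.0052) and stood at 1.34 in RS4:11 (adjusted p = 0.11), a difference of 1.16 (0.23 to 2.09). CYLD, a deubiquitinase gene, had nearly the same response in both lines, 0.62 in SEM-K2 and 0.57 in RS4:11, with a difference of 0.05 (-0.36 to 0.46).

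Several metabolic lists had smaller positive medians. Over all genes tested the median was 0.05, with 59.3% above 0. At an unadjusted p below 0.05, 3.65% of all genes were upward and 2.19% downward. Cholesterol synthesis genes had a median line difference of 0.29, with 16 of 18 above 0 and 4 at an unadjusted p below 0.05, from 0.30 in SEM-K2 and 0.02 in RS4:11. INSIG1, which retains the sterol sensor in the endoplasmic reticulum, rose in SEM-K2 by 0.80 (adjusted p = 0.016), with a difference of 0.38 (-0.01 to 0.77). Glycolysis and hypoxia genes had 0.19, with 28 of 31 above 0 and 5 at an unadjusted p below 0.05, and medians of 0.11 without SEM-K2 vehicle replicate 2 and 0.33 without SEM-K2 vehicle replicate 1. ENO2, a glycolytic enolase silent in RS4:11, rose in SEM-K2 by 2.08 (adjusted p = 0.0086), with a difference of 2.07 (1.20 to 2.94; adjusted p = 0.14). Lysosome genes had 0.18, with 25 of 29 above 0 and 3 upward and 1 downward at an unadjusted p below 0.05, with medians of 0.07 without RS4:11 vehicle replicate 1 and 0.37 without SEM-K2 vehicle replicate 1. Endoplasmic reticulum chaperones had 0.21, with 20 of 24 above 0 and 4 at an unadjusted p below 0.05.

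Immediate early genes had a median line difference of 0.28, with 13 of 18 above 0, 5 upward and 2 downward at an unadjusted p below 0.05. Over all genes tested, 59.3% were above 0, and 3.65% were upward and 2.19% downward at that level. Without SEM-K2 vehicle replicate 2 the median of the list was -0.03, and without SEM-K2 vehicle replicate 1 it was 0.52. FOS, a subunit of AP-1, was silent in RS4:11 (2.36 to 2.45) and rose in SEM-K2 by 1.20 (adjusted p = 0.025). The line difference of FOS was 1.17 (95% interval 0.49 to 1.86) and was not called (adjusted p = 0.32). SEM-K2 vehicle replicate 2 lay below the floor, so part of the rise of FOS is measured below it. Its SEM-K2 vehicle arrays were at 4.46 and 2.67, with 5.03 and 4.36 at EC50 and 5.25 and 4.41 at 3xEC50, so that treated and vehicle arrays overlapped across replicates.

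Lists of growth and identity differed in how many members had small p-values. At an unadjusted p below 0.05, B cell surface receptors had 2 upward and 3 downward of 17. B lineage transcription factors had 2 upward and 1 downward of 16, and the MYC network 2 upward and 1 downward of 9. Over all genes tested, 3.65% were upward and 2.19% downward at that level. Mitosis genes had a median line difference of -0.10, with 28 of 32 below 0 and none at an unadjusted p below 0.05. Over all genes tested, 4302 of 10561 were below 0. The median of the mitosis list was 0.11 without SEM-K2 vehicle replicate 1. DNA replication (0.04), ribosomal proteins (0.03), ribosome biogenesis (0.07) and the respiratory chain (0.06) had no member at an unadjusted p below 0.05 either. Targets of KMT2A fusions had -0.08 with none of 17 at that level. Metallothioneins had -0.30, with 7 of 9 below 0, but the sign turned to 0.27 without probe sets ending in _x_at, whose probes can match several genes.

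**Figure D5:**
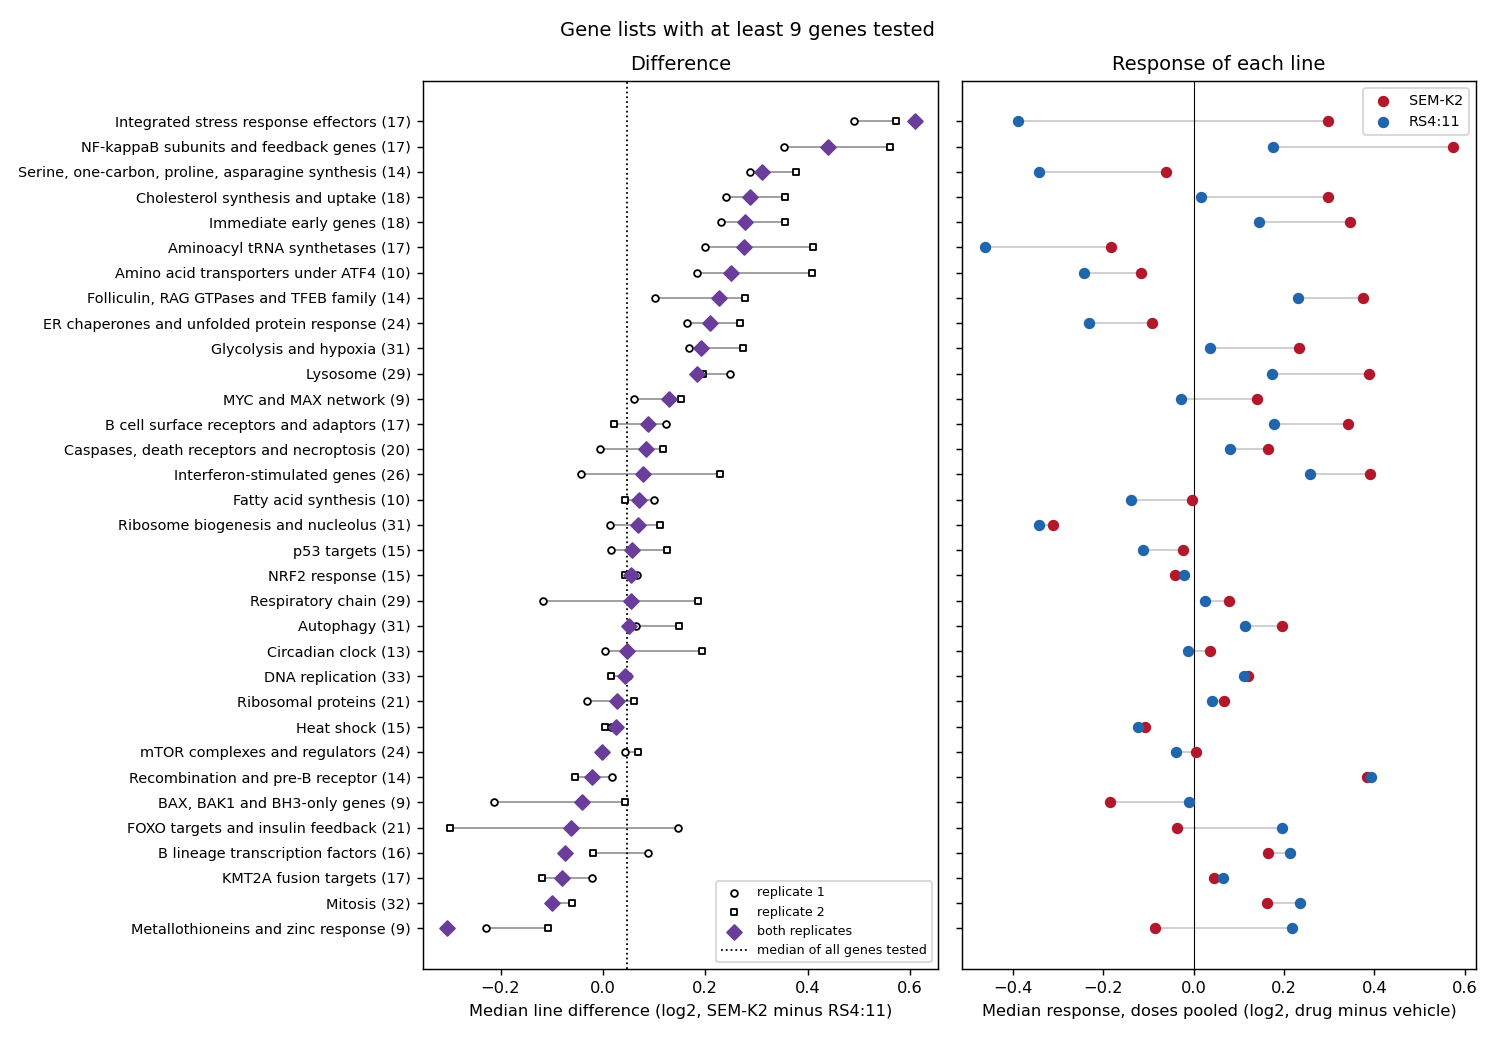
Median line difference (log2, SEM-K2 minus RS4:11) of gene lists with at least 9 tested members, left, with the medians from each replicate, and median response of each line, right; numbers in brackets count the genes tested. The integrated stress response effectors lead at 0.61, and the dotted line is the median of all genes tested, 0.05.

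The proteins against which obatoclax was designed showed no called line difference in transcript. MCL1 gave -0.08 (95% interval -0.53 to 0.37), BCL2 0.05 (-0.28 to 0.39) and BCL2L2 0.22 (-0.38 to 0.82). BCL2L1 gave -0.83 (-2.13 to 0.46), an interval widened by a level of 3.67 on SEM-K2 3xEC50 replicate 2, the array that stood apart in RNA quality, against 6.30 in replicate 1 of that group. A pair of other BCL2L1 probe sets, above the floor on all 12 arrays, gave 0.16 and 0.15, of the opposite sign. Its levels otherwise lay between 5.37 and 6.66 in both lines.

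Among the proapoptotic members, BIK and BCL2L11 (BIM), both BH3-only genes, had line differences of opposite sign. BIK was at 4.64 and 3.56 with vehicle, 4.55 and 3.64 at EC50 and 4.41 and 3.72 at 3xEC50 in SEM-K2, and at 7.15 and 6.32, 7.68 and 7.69, and 8.03 and 7.72 in RS4:11. All treated RS4:11 arrays exceeded vehicle (1.04, adjusted p = 0.071), and SEM-K2 arrays stayed near the floor. BIK had a line difference of -1.06 (95% interval -1.63 to -0.49; adjusted p = 0.26). BCL2L11 gave 0.59 (0.19 to 0.99; adjusted p = 0.45), with 0.52 in SEM-K2 and -0.07 in RS4:11. BMF gave -0.60 (-1.14 to -0.07), and PMAIP1 (NOXA), a target of ATF4, gave -0.04 (-0.38 to 0.30).

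The line difference was also computed at each dose against the shared vehicle arrays. At EC50 2 genes were called (0.0189%), KANK1 and BHLHE40, with 468 at an unadjusted p below 0.05 (4.43%). At 3xEC50 7 genes were called (0.0663%), with 825 at an unadjusted p below 0.05 (7.81%), and 666 of 9804 (6.79%) among genes expressed in both lines. The test of whether the line difference itself changed between the doses called none of 10561 genes with limma, and 674 (6.38%) had an unadjusted p below 0.05. CD40, with a line difference of 0.80 at EC50 and 1.93 at 3xEC50, had an unadjusted p of 0.0022 there (adjusted p = 0.69). DLX2, with -0.95 and -2.18, had a smaller unadjusted p of 0.00013 (adjusted p = 0.47). ME1, with -1.26 and 0.11, had 8.2e-05 (adjusted p = 0.43). For ME1 at EC50 and DLX2 at 3xEC50, the SEM-K2 levels lay below the floor.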

How the data were processed

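RNA of 12 samples was measured on Affymetrix U133 Plus 2 arrays. The authors computed the deposited log2 values with GCRMA, per the submitters' processing notes, which name neither a version nor the scale. The scale was taken to be log2 from the values themselves, 0.64 to 16.22 with medians per array of 3.13 to 3.16. Precision is limited by the number of arrays.

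The array's 54675 probe sets included 41091 named for 1 gene in the annotation given, of which 41037 matched RefSeq by identifier. Another 1801 had several names and 11777 no name, and these were left unnamed. Each gene was represented by its brightest probe set, by the mean of the 12 arrays. Of the genes tested, 3288 were read from probe sets of the _s_at kind (KANK1, BHLHE40, EYA1, GSDME and COL5A1 among them) and 675 from the _x_at kind, which can match other transcripts. Promoters came from RefSeq, 1 per gene.

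The difference was fitted with lmFit and eBayes of limma 3.58.1 (R 4.3.3, with the data.table package, version 1.17.8) on 6 group means with the replicate number within each line as a block, which left 4 residual and 3.99 prior degrees of freedom. P-values were adjusted by Benjamini-Hochberg over 10561 genes. Intervals are 95% intervals of the moderated fit. The script was tested on simulated data. Python 3.11.15, pandas 2.3.3 and matplotlib 3.10.9 were used for summaries and plots.

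Same-numbered arrays of 1 line deviated together, with correlations of 0.35 to 0.60 over 6 pairs of groups, as did those across lines (0.19 to 0.40, 9 pairs). The block within each line was part of the definition of the comparison and was not derived from these correlations. A block shared by both lines gave 5 calls, without BHLHE40 and MS4A1. Alternatives were fits without the block, with a shared or random block, with array weights, with trend and robust eBayes, with other probe set rules, filters, a floor or centring, from 1 line alone, and without each array. A fit with a separate spread for each line was added after seeing the data.

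The members, the 38 gene lists (832 genes, 638 of them tested) and the tests were chosen with earlier results of these data known. Genes were picked by the size of the difference among called genes and then by the smallest p. They were 12 upward and 12 downward expressed in both lines and 6 and 6 silent in 1 line. Each list added up to 4 called members or the 1 with the smallest p, for 69 in all. List picks whose pooled line difference is not given above, none of them called, had these values. Above 0 were BACH2 (0.81), ASAH1 (0.70), EDEM1 (0.67), OAS3 (0.63), TNFRSF1A (0.63), IGLL1 (0.51) and NSDHL (0.49). RRAGD (0.45), SCD (0.42), UTP4 (0.33), ZC3H12C (0.32) and CDC45 (0.28) were too. Below 0 were RPS6 (-0.11), ASPM (-0.31), SDHD (-0.34), MXD3 (-0.36) and MT1X (-0.54). SESN1, ME1 and BCL6 (-0.57 each) and TP53INP1 (-0.72) were too. The markers NKG7, PDGFRB and CSF1R gave 1.01, -0.99 and -0.03. Other members of the stress response, ATF4 target, cholesterol, NF-kappaB and BCL2 lists, and FLCN, FNIP2, USP18 and GPR18, were named after their values were seen.

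The other lists covered fatty acid synthesis (median line difference 0.07), autophagy (0.05), folliculin and RAG GTPases (0.23), mTOR (-0.00), interferon-stimulated genes (0.08), caspases and death receptors (0.08), p53 targets (0.06), heat shock (0.03), the NRF2 response (0.06), the MYC network (0.13), B lineage transcription factors (-0.07), recombination and pre-B receptor (-0.02), B cell surface receptors (0.09), the circadian clock (0.05), FOXO targets (-0.06) and markers of other cells.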

Additional observations from a re-analysis of the deposited data

Results flagged for a closer look

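For 7 genes the test of the difference between the lines passed its threshold. The difference (SEM-K2 minus RS4:11, log2) was 4.08 for KANK1, 3.27 for BHLHE40, 2.70 for CD1A, 3.53 for ENPP2, 2.03 for MS4A1, -1.56 for DLX2 and 3.50 for STARD13. All 7 lay below the floor of 4 on each RS4:11 array, so each value is in effect the SEM-K2 response. The SE of each pools the spread of both lines, so RS4:11 arrays at background, which can vary little, enter it. For DLX2 the SD within groups was 0.002 to 0.010 in RS4:11 and 0.009 to 0.23 in SEM-K2. All 7 were also called in the fit with a separate spread for each line, added after seeing the data. Groups of 2 samples are too small for a test of single outlying arrays.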

How the results depend on the processing

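The 7 calls of the pooled line difference became 12 with trend and robust eBayes, 2 without the filter on low values, 13 with values raised to the floor and 19 with a separate spread for each line, and ranged from 1 to 14 when 1 array was left out. With no replicate block the count was also 7, with 6 genes shared, BHLHE40 lost and EYA1 gained. They were 5 with a block shared by both lines and 8 with a random block. Genes expressed in both lines, none called, gave 1 with no replicate block, 1 with a random block, 1 with probe sets averaged, 1 with the floor, 4 with trend and robust eBayes and 7 with a separate spread, and 0 to 3 with 1 array left out. Genes silent in 1 line gave 1 without the filter, 12 with the floor and 12 with a separate spread, and 1 to 12 with 1 array left out. At EC50 the 2 calls became 1 with no replicate block, 1 with a shared block, 4 with probe sets averaged and 1 without the filter (1 to 6 with 1 array left out). At 3xEC50 the 7 calls became 4 with no replicate block, 18 with trend and robust eBayes, 0 without the filter and 13 with the floor (1 to 42). The dose step gave 1 without the filter (0 to 28). The 297 calls of SEM-K2 became 79 with no replicate block, 76 with array weights, 467 with trend and robust eBayes, 96 without the filter and 28 from the arrays of that line alone (35 to 529). The 26 calls of RS4:11 became 0 with no replicate block, 17 with a shared block, 104 with array weights, 119 with trend and robust eBayes, 15 with probe sets averaged, 2 without the filter, 49 after centring and 1 from its own arrays (0 to 13). The highest counts with 1 array left out, for 3xEC50, the dose step and SEM-K2, came without SEM-K2 3xEC50 replicate 1. That fit kept replicate 2, which stood apart in RNA quality, as the only SEM-K2 array at 3xEC50. For the pooled line difference and for EC50, the highest counts came without SEM-K2 vehicle replicate 1. The fit without that array kept both SEM-K2 3xEC50 arrays. Apart from the smaller sets of genes or arrays, the cause of these shifts in counts was not tested. These genes turned in sign. FKBP4 (0.74) ranged from -0.11 without SEM-K2 vehicle replicate 1 to 1.59 without SEM-K2 vehicle replicate 2. ITGA2B (-0.07) was 0.36 with probe sets averaged and ranged from -0.33 without RS4:11 vehicle replicate 1 to 0.19 without RS4:11 vehicle replicate 2, being also above 0 without SEM-K2 EC50 replicate 1 (0.0062) or RS4:11 EC50 replicate 2 (0.0015). USP18 (-0.42) ranged from -1.24 to 0.40, BCL2L2 (0.22) from -0.11 to 0.55, ASNS (0.03) from -0.21 to 0.27, CYLD (0.05) from -0.10 to 0.20, FNIP2 (0.03) from -0.047 to 0.11, BCL2 (0.05) from -0.013 to 0.12, MCL1 (-0.08) from -0.21 to 0.043 and PMAIP1 (-0.04) from -0.12 to 0.035 with 1 array left out. After centring, ASNS was -0.016 and FNIP2 -0.015, and with probe sets averaged PMAIP1 was 0.026. The median difference of all genes was 0.05, and it was 0.12 without SEM-K2 vehicle replicate 1 and -0.02 without SEM-K2 vehicle replicate 2. With 2 arrays per group, uncalled genes have wide intervals, and genes near the floor have only bounds.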
